A study of Mus musculus with 12 samples.

Results

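Mast cells are tissue-resident immune cells that store proteases in granules and release them on activation. The 8 genes described here are Tpsab1, Tpsb2, Mcpt4, Cma1, Cpa3, Ms4a2, Hdc and Kit, the rows of the deposited raw count table with those symbols, out of 25124 genes. They were chosen by name as mast cell genes, with the lesion in view and with Tpsab1 already known as 1 of the largest differences between DKK1 and WT lesions. Their values in lesion libraries are therefore given as a description, without tests, and only the comparison of intact hemispheres, which the choice did not use, is tested for them. The question of the study was the role, after ischemic stroke, of DKK1 (dickkopf-1), which is secreted and blocks Wnt receptors. RNA was sequenced from brain tissue taken 28 days after middle cerebral artery occlusion (MCAo), a stroke model.

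DKK1 mice had the genotype Gt(ROSA)26Sortm1.1(rtTA,EGFP)Nagy Hprttm1(tetO-Dkk1)Spdl Tg(TCF/Lef1-lacZ)34Efu/J, that is, a doxycycline-dependent activator with EGFP at ROSA26, a tetO-Dkk1 transgene at Hprt and a TCF/Lef1-lacZ reporter. WT mice were C57BL6/J and carried none of these. Both genotypes had MCAo and received doxycycline at 200 mg/kg, with DKK1 induction from day 3 after MCAo. The 4 groups were DKK1 ipsilateral (lesioned hemisphere), WT ipsilateral, DKK1 contralateral (intact hemisphere) and WT contralateral, with 3 libraries each. No group carried the transgenes without doxycycline and none lacked MCAo, and ROSA26 is transcribed in most tissues, so induced DKK1, the transgene insertions and any other difference between the 2 mouse lines cannot be told apart. The labels give no age and no link from library to animal. A p-value here therefore reflects the variation among libraries, part of which may be technical.

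Mouse connective-tissue mast cells are known for beta tryptases, chymases and carboxypeptidase A3, which are packed with heparin and histamine in their granules. They are also known for the high-affinity IgE receptor, which triggers degranulation, and for the receptor KIT, which they need to survive. In the brain they are few and sit mainly in the meninges, around vessels and in the thalamus and hypothalamus. Hdc and Kit are not specific to them in brain: histaminergic neurons of the hypothalamus transcribe Hdc, and several kinds of neuron transcribe Kit.

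RefSeq promoter windows (GRCm38.p6, 250 bases before to 50 after each start) matched 6 of the 8 genes, all but Tpsab1 and Tpsb2. GATA factors are known regulators of mast cell genes, so the windows were searched on both strands for GATAA, which 25.8% of 27025 promoters hold. The motif was found in 4 granule or receptor genes of the set, whose windows are shown 5′ to 3′ on the gene's strand with GATAA, or TTATC where the motif is on the other strand, in capitals.
Mcpt4 (chr14:56062261-56062560, minus strand): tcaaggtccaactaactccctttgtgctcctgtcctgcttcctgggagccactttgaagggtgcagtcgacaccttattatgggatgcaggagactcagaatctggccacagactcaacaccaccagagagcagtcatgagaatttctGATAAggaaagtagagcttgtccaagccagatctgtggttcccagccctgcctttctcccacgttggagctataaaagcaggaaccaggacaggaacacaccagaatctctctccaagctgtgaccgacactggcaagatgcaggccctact
Cma1 (chr14:55944626-55944925, minus strand): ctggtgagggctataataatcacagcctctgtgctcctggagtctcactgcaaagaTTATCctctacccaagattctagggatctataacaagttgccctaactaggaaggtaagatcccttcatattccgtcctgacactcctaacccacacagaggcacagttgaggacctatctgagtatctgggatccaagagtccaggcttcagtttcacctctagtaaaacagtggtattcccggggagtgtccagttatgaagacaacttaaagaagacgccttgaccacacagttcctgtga
Cpa3 (chr3:20242132-20242431, minus strand): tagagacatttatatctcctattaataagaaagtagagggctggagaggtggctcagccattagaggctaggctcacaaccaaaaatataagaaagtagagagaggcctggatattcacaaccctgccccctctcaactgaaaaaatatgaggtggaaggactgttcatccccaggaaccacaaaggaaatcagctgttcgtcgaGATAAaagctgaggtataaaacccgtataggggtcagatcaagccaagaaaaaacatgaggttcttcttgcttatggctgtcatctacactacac
Ms4a2 (chr19:11623670-11623969, minus strand): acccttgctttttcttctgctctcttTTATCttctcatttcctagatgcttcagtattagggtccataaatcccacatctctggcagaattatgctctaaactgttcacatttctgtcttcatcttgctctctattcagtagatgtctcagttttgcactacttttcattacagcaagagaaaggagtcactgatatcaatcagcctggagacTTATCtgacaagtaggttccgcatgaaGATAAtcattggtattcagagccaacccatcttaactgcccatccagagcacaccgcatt
The motif began at base -45 from the start in Cpa3, at -102 in Mcpt4 and at -194 in Cma1. Ms4a2 held 3 copies, at -224, -37 and -10. No match lay in the windows of Hdc and Kit. The letters CANNTG, the E-box, were present in 4 of the 6 windows (Cma1, Cpa3, Hdc and Kit) and in 72.1% of all promoters. A match is a run of letters and not a measured binding site.

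Libraries held 21209920 to 26911840 counts. Brain identity was clear in all of them, with 8 neuronal, glial and vessel markers summing to 3320 to 4630 CPM (counts scaled to library size). WT ipsilateral 1 stood apart from its group: on the first principal component (73.8% of the variance) the DKK1 lesions lay at 62.8, 79.2 and 83.8 and the WT lesions at 70.9, 29.2 and 37.1, so that the first WT library fell among the DKK1 ones. Fitted fold changes of the 8 genes that use WT lesions are given with and without it. The intact libraries lay at -64.3, -56.8 and -65 in DKK1 mice and at -41.2, -72.6 and -63.3 in WT mice. WT contralateral 1 thus also stood apart from its group, on the side of the lesions. Between intact hemispheres 155 genes were called with that library and 136 without it. All CPM use TMM-adjusted library sizes, and log2 fold changes are from edgeR over 3 libraries a group, fitted in all 12 libraries together. The standard error (SE) after ± on a log2 fold change was worked back from edgeR's test. It is the absolute log2 fold change divided by the square root of the test's F statistic, and is approximate where counts are low. In tissue libraries such as these, fewer cells of a type and less RNA per cell cannot be told apart.

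The 6 genes other than Hdc and Kit together had 329, 532 and 292 counts in the DKK1 lesions and 287, 11 and 16 counts in the WT lesions. The intact hemispheres held 11, 1 and 3 counts in DKK1 mice and 10, 1 and 8 counts in WT mice. Mast cell transcripts were thus readily counted in 4 libraries, all DKK1 lesions and WT ipsilateral 1, and were near the limit of detection in the other 8. As summed CPM the 6 genes stood at 12.9, 21.9 and 10.9 in DKK1 lesions and at 10.7, 0.436 and 0.609 in WT lesions.

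**Figure D1:**
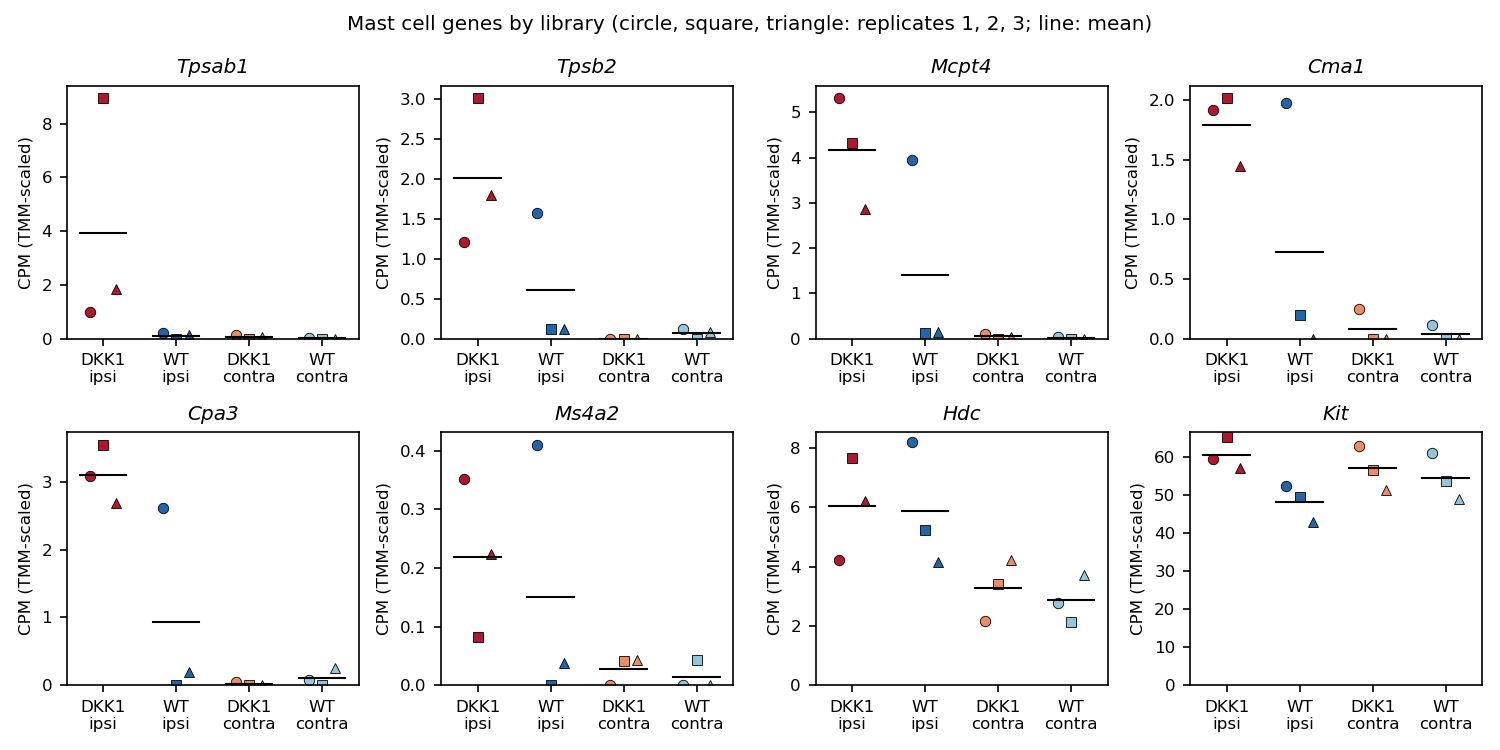
Level of each of the 8 genes (CPM, linear axis from 0) in the 12 libraries, by group (ipsi, ipsilateral; contra, contralateral), with a line at the group mean. The circle of WT ipsilateral 1 stands with the DKK1 lesions for Tpsb2, Mcpt4, Cma1, Cpa3 and Ms4a2, but at 0.187 CPM for Tpsab1, below all 3 DKK1 lesions, while Kit averages 60.5 CPM in DKK1 and 48.2 CPM in WT lesions and 56.9 CPM in DKK1 and 54.4 CPM in WT intact tissue.

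Tpsab1 (NM_031187, chromosome 17, 25343245 to 25345562, minus strand, mm10) encodes mouse mast cell protease 7, a tryptase secreted from granules. C57BL/6 mice are known to carry a splice-site change that leaves them without this protein. RefSeq annotates the gene in the C57BL/6J genome (GRCm38.p6) as a transcribed pseudogene, while the count table and GENCODE M21 list it as protein coding. It had 25, 217 and 50 counts in DKK1 lesions and 5, 0 and 3 counts in WT lesions. In intact hemispheres it had 3, 0 and 1 counts in DKK1 mice and 1, 0 and 0 counts in WT mice. All 3 DKK1 lesions were above every other library, and DKK1 ipsilateral 2 was far above the other DKK1 lesions. The level averaged 3.93 ± 4.37 CPM in DKK1 lesions and 0.1 ± 0.0942 CPM in WT lesions (SD, n = 3 each), a log2 fold change of 5.20 ± 1.0. Without DKK1 ipsilateral 2 it was 3.74, and without WT ipsilateral 1 it was 5.95. Against the intact hemisphere, the DKK1 lesion was higher by 5.93 ± 1.12 on the log2 scale, and by 4.47 without DKK1 ipsilateral 2. In WT mice the lesion held 8 counts and the intact side 1, a ratio of CPM of 7.54 with an exact 95% counting interval of 1.01 to 334, and here the groups overlapped. The fitted log2 difference in WT mice was 2.52, and 1.76 without WT ipsilateral 1. Such intervals, and bounds below, cover counting error only.

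Tpsb2 (NM_010781, chromosome 17, 25366333 to 25368092, plus strand) encodes mouse mast cell protease 6, the other granule tryptase, and lies next to Tpsab1. It had 31, 73 and 48 counts in DKK1 lesions and 42, 3 and 3 counts in WT lesions. The intact side held none in DKK1 mice and 3, 0 and 2 counts in WT mice. WT ipsilateral 1 lay within the range of the DKK1 lesions, so the lesion groups overlapped. The log2 fold change between them was 1.71 ± 0.82, and 4.04 without WT ipsilateral 1. The DKK1 lesion was at least 44.8-fold above the DKK1 intact side, taking 3 counts over the group as the floor. The WT lesion was above the WT intact side by 3.07 ± 1.27 on the log2 scale, and by 0.74 without WT ipsilateral 1. GENCODE transcripts of Tpsab1 and Tpsb2 are 79.8% identical over 812 aligned bases, with a longest shared run of 39 bases. How reads common to both were assigned is not given in the sources used here, so their levels are uncertain to that extent.

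Mcpt4 (NM_010779, chromosome 14, 56059744 to 56062310, minus strand) encodes the chymase that is regarded as the mouse counterpart of human chymase by function. It had 136, 105 and 77 counts in DKK1 lesions and 106, 3 and 4 counts in WT lesions. The intact side held 2, 0 and 1 counts in DKK1 mice and 1, 0 and 0 counts in WT mice. WT ipsilateral 1 was again inside the DKK1 range, and the other WT lesions were well under it. Lesion levels averaged 4.18 ± 1.23 CPM in DKK1 mice and 1.41 ± 2.21 CPM in WT mice (SD, n = 3 each), the log2 fold change being 1.55 ± 0.87 with WT ipsilateral 1 and 4.89 without it. The ratio of CPM between lesion and intact side was 93.7 (exact interval 31.8 to 457) in DKK1 mice and 106 (18.7 to 4240) in WT mice. Of the 113 counts in WT lesions 106 were in WT ipsilateral 1, and the fitted log2 difference of lesion minus intact tissue in WT mice was 6.26 with that library and 2.92 without it.

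Cma1 (NM_010780, chromosome 14, 55941451 to 55944675, minus strand) encodes mouse mast cell protease 5, a member of the alpha-chymase branch. It had 49, 49 and 39 counts in DKK1 lesions and 53, 5 and 0 counts in WT lesions. In intact tissue it had 5, 0 and 0 counts in DKK1 mice and 3, 0 and 0 counts in WT mice. The lesion groups overlapped through WT ipsilateral 1, with a log2 fold change of 1.29 ± 0.94 with that library and 4.13 without it. The DKK1 lesion was above the DKK1 intact side by 4.50 ± 1.34 on the log2 scale, and all 5 counts of the DKK1 intact side were in DKK1 contralateral 1. In WT mice the ratio of lesion to intact CPM was 18.2 (exact interval 5.93 to 90.9). WT ipsilateral 1 held 53 of the 58 counts in WT lesions, and the fitted log2 difference was 4.02 with it and 1.17 without it. Mcpt4 and Cma1 transcripts are 73.1% identical over 651 aligned bases.

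Cpa3 (NM_007753, chromosome 3, 20215616 to 20242181, minus strand) encodes carboxypeptidase A3, an exopeptidase stored in the same granules. It had 79, 86 and 72 counts in DKK1 lesions and 70, 0 and 5 counts in WT lesions. The intact side held 1, 0 and 0 counts in DKK1 mice and 2, 0 and 6 counts in WT mice. In CPM the lesion groups did not overlap, but narrowly, with 2.68 the lowest DKK1 lesion and 2.62 the highest WT lesion. The log2 fold change between lesions was 1.71 ± 0.90, and 4.93 without WT ipsilateral 1. The ratio of lesion to intact CPM was 210 in DKK1 mice (exact interval 37.2 to 8310). In WT mice the lesion was higher by 3.06 ± 1.31 on the log2 scale, a difference that was -0.16 without WT ipsilateral 1. The gene overlaps the microRNA gene Mir7007 on the same strand, whose reads cannot be told apart from its own.

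Ms4a2 (NM_013516, chromosome 19, 11615521 to 11623719, minus strand) encodes the beta chain of the high-affinity IgE receptor. It had 9, 2 and 6 counts in DKK1 lesions and 11, 0 and 1 counts in WT lesions. Intact tissue held 0, 1 and 1 counts in DKK1 mice and 0, 1 and 0 counts in WT mice. It was the only one of the 8 genes that did not pass the filter on low counts, so it has no fitted value. Its highest library was WT ipsilateral 1, and the lesion groups overlapped. The ratio of lesion to intact CPM was 7.52 in DKK1 mice (exact interval 1.78 to 67.1) and 11.3 in WT mice (1.67 to 483).

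Hdc (NM_008230, chromosome 2, 126593660 to 126618678, minus strand) encodes histidine decarboxylase, which makes histamine. It had 108, 186 and 167 counts in DKK1 lesions and 220, 132 and 109 counts in WT lesions. The intact side held 44, 83 and 97 counts in DKK1 mice and 74, 50 and 88 counts in WT mice. Levels averaged 6.04 ± 1.73 CPM in DKK1 lesions and 5.87 ± 2.11 CPM in WT lesions, and 3.26 ± 1.04 CPM in DKK1 and 2.88 ± 0.794 CPM in WT intact tissue (SD, n = 3 each). The lesion groups overlapped, with a log2 fold change of 0.04 ± 0.32, and of 0.36 without WT ipsilateral 1. Lesion was above intact tissue by 0.88 ± 0.33 on the log2 scale in DKK1 mice, where the groups overlapped (4.23 CPM in both DKK1 ipsilateral 1 and DKK1 contralateral 3), and by 1.03 ± 0.33 in WT mice, where they did not overlap. Without WT ipsilateral 1 the WT value was 0.70. The 10 hypothalamus markers, Hdc among them, summed to 60.4 to 205 CPM in DKK1 lesions and 62.8 to 144 CPM in WT lesions, and to 73.0 to 129 CPM in DKK1 and 44.3 to 71.2 CPM in WT intact tissue, and none of the 10 was at 0 in any group. The neuropeptide Hcrt, made by hypothalamic neurons, ranged from 7 to 743 counts among lesion libraries. The part of such differences in the level of Hdc was not tested.

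Kit (NM_001122733, chromosome 5, 75574987 to 75656721, plus strand) encodes the receptor for stem cell factor. It had 1516, 1580 and 1528 counts in DKK1 lesions and 1398, 1245 and 1128 counts in WT lesions. The intact side held 1283, 1377 and 1176 counts in DKK1 mice and 1624, 1252 and 1157 counts in WT mice. The lesion groups did not overlap in CPM, with a log2 fold change of 0.33 ± 0.10, the DKK1 lesions being the higher, and of 0.39 without WT ipsilateral 1. Levels averaged 60.5 ± 4.23 CPM in DKK1 and 48.2 ± 4.78 CPM in WT lesions, and 56.9 ± 5.80 CPM in DKK1 and 54.4 ± 6.09 CPM in WT intact tissue (SD, n = 3 each). The log2 difference of lesion minus intact tissue was 0.09 ± 0.10 in DKK1 mice and -0.18 ± 0.10 in WT mice, with overlapping groups in both, and the WT value was -0.24 without WT ipsilateral 1. Other brain cells can supply Kit reads, and 6 markers of oligodendrocyte precursors and interneurons summed to 702 to 785 CPM in DKK1 lesions and 776 to 823 CPM in WT lesions. In intact tissue they summed to 820 to 909 CPM in DKK1 and 837 to 861 CPM in WT mice. The sum mixes markers that differ in direction. In DKK1 mice Pdgfra had 2188 to 3033 counts in lesions and 1091 to 1495 in intact tissue, while Gad1 had 5213 to 6218 and 6607 to 7387.

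Among the 8 genes, all DKK1 lesions were above all WT lesions in 3 (Tpsab1, Cpa3 and Kit), beside 13.3% of the 17612 genes tested. All lesions were above all intact hemispheres in 6 genes in DKK1 mice (all but Hdc and Kit), beside 32.1% of genes, and in 3 in WT mice (Tpsb2, Mcpt4 and Hdc), beside 26.5%. The choice of the genes used these comparisons, so nothing is read from these counts.

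Levels of different genes were compared only per length, in the deposited TPM, an abundance per transcript length. Among the proteases in DKK1 ipsilateral 1, Mcpt4 was first at 7.80 TPM and Tpsab1 last at 1.19 TPM. DKK1 ipsilateral 2 had another order, with Tpsab1 first at 10.8 TPM and Mcpt4 second at 6.30 TPM. DKK1 ipsilateral 3 had Mcpt4 first at 4.26 TPM, and Tpsab1 there (2.30 TPM) was close to Tpsb2 (2.42 TPM) and Cpa3 (2.72 TPM). In WT ipsilateral 1 the order was Mcpt4 (6.05 TPM), Cma1 (2.74), Cpa3 (2.73), Tpsb2 (2.18) and Tpsab1 (0.237). Averaged over DKK1 lesions, Kit stood at 16.9 ± 1.01 TPM, Mcpt4 at 6.12 ± 1.78, Tpsab1 at 4.76 ± 5.26, Hdc at 3.65 ± 1.03, Cpa3 at 3.11 ± 0.40, Tpsb2 at 2.67 ± 1.20, Cma1 at 2.39 ± 0.38 and Ms4a2 at 0.124 ± 0.0811 (SD, n = 3). Kit and Ms4a2 stood apart at the ends of this order, and each neighbouring pair between Mcpt4 and Cma1 differed by less than the spread of the libraries. The TPM of Ms4a2 are of another transcript (2420 bases) than its counts (2749 bases).

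The make-up of the protease counts was set side by side in the 4 libraries rich in them. Tpsab1 made up 7.81%, 40.9% and 17.5% of the counts of the 5 protease genes in the DKK1 lesions, with exact binomial 95% intervals of 5.12 to 11.3, 36.7 to 45.3 and 13.3 to 22.4. In WT ipsilateral 1 it made up 1.81% (0.591 to 4.18), that is 5 of 276 counts. Of the 2 tryptases alone it was 44.6%, 74.8% and 51.0% in DKK1 lesions and 10.6% in WT ipsilateral 1, a denominator added after the data were seen. Cpa3 took 24.7%, 16.2% and 25.2% in DKK1 lesions and 25.4% in WT ipsilateral 1, and Tpsb2 took 9.69%, 13.8% and 16.8% in DKK1 lesions and 15.2% in WT ipsilateral 1. Mcpt4 took 42.5%, 19.8% and 26.9% in DKK1 lesions and 38.4% in WT ipsilateral 1. Cma1 took 15.3%, 9.25% and 13.6% in DKK1 lesions and 19.2% in WT ipsilateral 1, where its share was above all 3 DKK1 lesions. WT ipsilateral 2 and 3 held only 11 and 15 protease counts, 0 and 3 of them from Tpsab1, too few to place their share. As 1 WT library carries this contrast, it has no replicate check in WT mice.

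**Figure D2:**
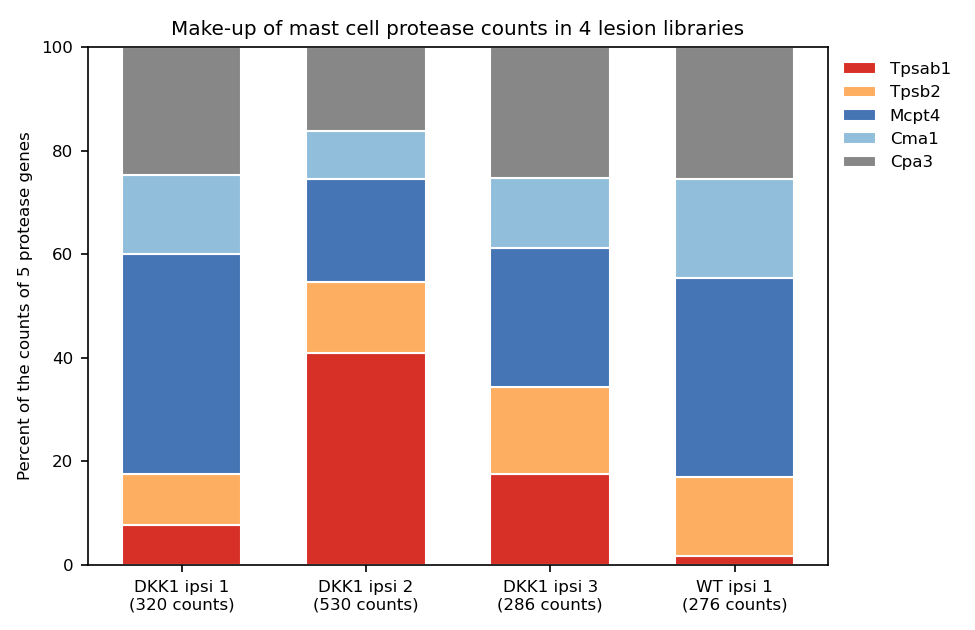
Percent of the counts of 5 mast cell protease genes taken by each gene (stacked bars from 0 to 100) in the 3 DKK1 lesion libraries and WT ipsilateral 1, with the number of protease counts under each bar. Tpsab1 takes 7.81%, 40.9% and 17.5% in the DKK1 libraries and 1.81% in the WT library.

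Intact hemispheres gave the comparison that was tested for these genes. None of the 7 genes that passed the filter differed between DKK1 and WT intact tissue (edgeR adjusted p = 1.0 for each), where 0.88% of all genes were called in either direction. At an unadjusted p under 0.05 the count was also 0, and DESeq2 and limma-voom likewise called 0. Kit had a log2 fold change of 0.06 ± 0.10 and Hdc of 0.19 ± 0.34. The 5 proteases had 13 counts in all in DKK1 and 18 in WT intact tissue, so a difference between them was not detectable at this depth unless very large. Tpsab1 had a ratio of CPM of 4.35 (exact interval 0.431 to 214), Cma1 1.81 (0.353 to 11.7) and Cpa3 0.136 (0.00307 to 1.01). Tpsb2 had 0 counts in DKK1 and 5 in WT intact tissue, with overlapping groups, too few to give a fold. The sum of the 6 genes had a mean log2 CPM lower by 0.30 in DKK1 tissue (exact permutation test over 3 against 3 libraries, two-sided p = 0.9, the smallest possible being 0.1). With Hdc and Kit included the mean difference was 0.07 and the exact permutation p was 0.6.

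Summed markers of other cell types moved along with the 6 genes in several cases. A list of 10 markers of leptomeninges and fibroblasts, tissue that houses mast cells, summed to 1170, 1580 and 1480 CPM in DKK1 lesions and 1330, 772 and 729 CPM in WT lesions. In intact tissue they summed to 174 to 223 CPM in DKK1 mice and 170 to 327 CPM in WT mice. The sum in WT ipsilateral 1 was thus high as well, but not every marker of the list followed it. Col1a1 had 6405 counts there and 2049 and 2157 in the other WT lesions. Slc6a13 had 608 against 806 and 676, and Slc22a6 had 328 against 382 and 227. A list of 8 neutrophil markers summed to 5.68 to 8.0 CPM in DKK1 lesions and to 8.64, 3.45 and 4.07 CPM in WT lesions, with WT ipsilateral 1 the highest, and to 0.735 to 2.83 CPM in DKK1 and 0.812 to 1.77 CPM in WT intact tissue. The WT lesion sums rested mainly on S100a8 (67, 32 and 29 counts) and S100a9 (146, 48 and 63 counts). Retnlg of the same list had 0, 3 and 4 counts. Skeletal muscle markers, 8 genes, summed to 16.6 to 20.5 CPM in DKK1 lesions, 12.4 to 13.9 CPM in WT lesions, 16.7 to 24.3 CPM in DKK1 and 16.0 to 18.0 CPM in WT intact tissue, being higher in all DKK1 than in all WT lesions and no lower in intact tissue, where mast cell genes were near 0. Thalamus markers, 7 genes, summed to 306 to 328 CPM in DKK1 lesions and 299 to 417 CPM in WT lesions, against 275 to 321 CPM in DKK1 and 210 to 294 CPM in WT intact tissue. This sum mixes markers that differ in direction. In DKK1 mice Prkcd had 2615 to 3385 counts in lesions and 822 to 1506 in intact tissue. Slc17a6 had 424 to 825 in DKK1 lesions and 916 to 1320 in DKK1 intact tissue. Basophils share the IgE receptor with mast cells. Of 5 basophil genes, the defining Prss34 was at 0 in all libraries and Mcpt8 had 1 count in 1 DKK1 lesion, while the shared genes Fcer1a, Cd200r3 and Ms4a2 brought the sum to 0.634 to 0.940 CPM in DKK1 lesions and 0.0381 to 0.673 CPM in WT lesions. In intact tissue the basophil sum was at most 0.0436 CPM in DKK1 and 0.0428 CPM in WT mice. The part of these tissues in the mast cell result was not tested.

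**Figure D3:**
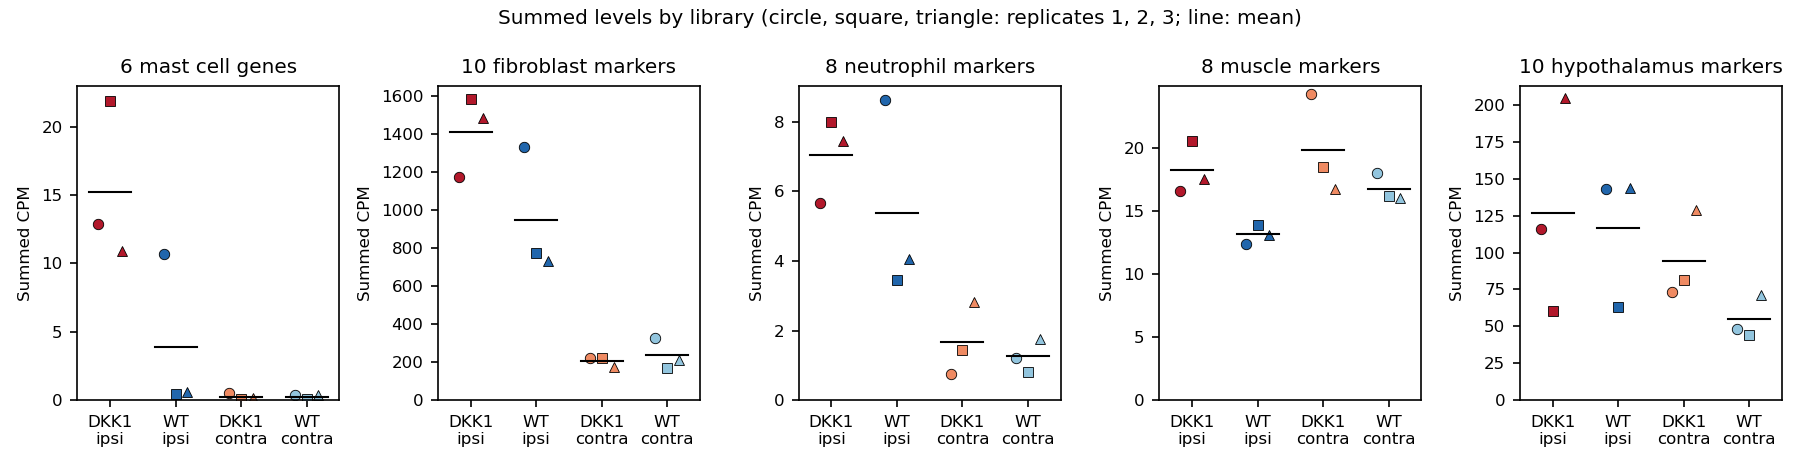
Summed CPM (linear axes from 0) of 6 mast cell genes and of 4 marker lists in the 12 libraries by group, with lines at the means. The DKK1 lesions have fibroblast sums of 1170 to 1580, and WT ipsilateral 1, at 1330, lies with them as it does for mast cell genes, while muscle markers do not follow the mast cell genes.

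Other genes of mast cell biology were taken in 5 lists of 68 genes, 57 of which were tested, and these lists were tested in all 4 comparisons. Many of their members are transcribed by microglia and macrophages too. The lists were fixed with earlier results of these data known, so their calls are not independent of the data. In lesions 2 of the 57 differed between genotypes, a share near the 2.37% of all genes tested, so nothing is read from this count about the lists. Il9r, the receptor for interleukin-9, a mast cell growth factor, rose in DKK1 lesions by 1.86 ± 0.31 on the log2 scale (edgeR adjusted p = 0.0116). It had 72, 109 and 129 counts in DKK1 lesions and 26, 31 and 30 counts in WT lesions, without overlap and with WT ipsilateral 1 at the level of its group. In the intact hemisphere it had 1 count in DKK1 and 1 in WT mice. Hrh1, the histamine H1 receptor, fell by 0.58 on the log2 scale, to 9.14 ± 1.02 CPM in DKK1 lesions against 13.6 ± 0.786 CPM in WT lesions (SD, n = 3 each; edgeR adjusted p = 0.015). Both calls depend on single libraries. The call of Il9r was lost when DKK1 ipsilateral 2 (edgeR adjusted p = 0.0671), the third DKK1 lesion (0.0737) or WT ipsilateral 3 (0.0717) was left out. That of Hrh1 was lost without the second DKK1 lesion (0.0649), the second WT lesion (0.0742) or the third WT lesion (0.0691), and with the 6 lesion libraries alone (0.142). The count of calls in the lists became 25 when WT ipsilateral 1 was left out. Leaving out DKK1 ipsilateral 1, 2 or 3 in turn gave 4, 0 and 1 calls, and leaving out WT ipsilateral 2 or 3 gave 1 and 0. Limma-voom gave 5 calls with or without a random effect for the replicate block, and edgeR with the replicate number as a fixed term gave 3.

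In intact tissue 0 of the 57 genes were called between DKK1 and WT mice by edgeR, DESeq2 or limma-voom, and 4 had an unadjusted edgeR p under 0.05 (Crlf2, Hrh1, Ltc4s and Srgn, named after their values were seen). Between lesion and intact hemisphere, 38 rose and 5 fell in DKK1 mice, where 27.5% of all genes rose and 22.6% fell. In WT mice 34 rose and 3 fell, where 21.2% of all genes rose and 15.9% fell. The adjusted p-values that follow are edgeR's, and none of the genes named by rule for these lesion comparisons lost its call when any 1 library was left out.

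The list of mast-cell-restricted or enriched genes had 20 genes, of which 12 were tested. Mcpt1 and Mcpt9, proteases of mucosal and uterine mast cells in mice, were at 0 in all libraries, and Mcpt2 had 1 count. Mrgprb1, a Mas-related receptor gene, had 15, 22 and 20 counts in DKK1 lesions, 10, 1 and 1 counts in WT lesions, and 1 count in all intact tissue. Its neighbour Mrgprb2, the mast cell receptor for basic secretagogues, had 2, 4 and 3 counts in DKK1 lesions and 3, 0 and 0 counts in WT lesions, and 1 count in DKK1 contralateral 1. Fcer1a, the IgE-binding alpha chain, had 9, 14 and 9 counts in DKK1 lesions and 5, 0 and 0 counts in WT lesions, and none in intact tissue. Mrgprb1, Mrgprb2 and Fcer1a all had counts in the 3 DKK1 lesions and WT ipsilateral 1. Other genes of the list did not follow this course. Tpsg1 had 15, 17 and 20 counts in DKK1 lesions and 21, 6 and 12 counts in WT lesions. Its intact side held 19, 16 and 16 counts in DKK1 mice and 12, 21 and 15 counts in WT mice. Tpsg1, Tph1 and Slc18a2 were called in none of the 4 comparisons. These genes and Mrgprb2 were named outside the rule. In the list, 7 genes rose and 1 fell in the DKK1 lesion, with a median log2 fold change of 0.61 against 0.01 for all genes, and 6 rose and 1 fell in the WT lesion, with a median of 0.50 against 0.01. The genes that fell, Rab27b in the DKK1 lesion and Cyp11a1 in the WT lesion, were named after their values were seen. Il1rl1, the interleukin-33 receptor, rose by 2.93 ± 0.53 in DKK1 mice (adjusted p = 0.00079) and by 3.02 ± 0.57 in WT mice (0.00204). Adora3, an adenosine receptor, rose by 2.06 ± 0.29 (0.000158) in DKK1 mice and 1.85 ± 0.30 (0.00074) in WT mice. Slc45a3, a transporter abundant in mast cells, rose by 2.22 ± 0.34 (0.000263) in DKK1 mice and 1.41 ± 0.33 (0.00681) in WT mice. Mitf, a transcription factor of mast cells and pigment cells, rose by 0.91 ± 0.13 (0.000196) in DKK1 mice and 0.83 ± 0.13 (0.00073) in WT mice.

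In the list of IgE receptor signalling, 10 of 12 genes rose in the lesion of each genotype and none fell, with medians of 2.84 in DKK1 and 2.23 in WT mice. Fcer1g, the gamma chain that many Fc receptors share, rose by 3.29 ± 0.21 in DKK1 mice (adjusted p = 1.8e-06) and 2.46 ± 0.21 in WT mice (2.57e-05). Its mean was 58.3 ± 5.61 CPM in DKK1 lesions and 5.93 ± 0.512 CPM in DKK1 intact tissue (SD, n = 3 each). The kinase gene Syk rose by 4.13 ± 0.22 in DKK1 mice (8.34e-07) and 3.09 ± 0.21 in WT mice (1.36e-05). Btk, another kinase, rose by 3.86 ± 0.26 (1.84e-06) in DKK1 mice and 3.12 ± 0.26 (2.1e-05) in WT mice. Inpp5d, the inhibitory phosphatase SHIP, rose by 2.57 ± 0.18 (2.07e-06) in DKK1 mice and 1.95 ± 0.18 (3.16e-05) in WT mice. Unlike the proteases, Fcer1g was abundant in all WT lesions, with 1388, 764 and 1084 counts.

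Of 15 tested genes for histamine and lipid mediators, 8 rose and 3 fell in the DKK1 lesion and 6 rose and 1 fell in the WT lesion. Hpgds, the haematopoietic prostaglandin D synthase, rose by 3.05 ± 0.30 (adjusted p = 1.39e-05) in DKK1 mice and 2.02 ± 0.29 (0.000392) in WT mice. Ptgdr, a prostaglandin D receptor, rose by 4.64 ± 0.54 (4.64e-05) in DKK1 mice and 3.13 ± 0.51 (0.000897) in WT mice. Ltc4s, which makes leukotriene C4, rose by 2.08 ± 0.18 (4.96e-06) in DKK1 mice and 1.35 ± 0.17 (0.000189) in WT mice. Alox5ap, its upstream partner in leukotriene synthesis, rose by 2.22 ± 0.26 (3.56e-05) in DKK1 mice and 1.76 ± 0.26 (0.000411) in WT mice. The genes that fell were the histamine receptors Hrh1, Hrh2 and Hrh3 in the DKK1 lesion and Hrh3 in the WT lesion, named after their values were seen. The call of Hrh1 in the DKK1 lesion was kept whichever of the 12 libraries was left out. The calls of Hrh2 and Hrh3 in DKK1 mice and of Hrh3 in WT mice were lost with 5, 6 and 9 of the 12 left out in turn, at adjusted p of up to 0.139, 0.13 and 0.153.

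Of 10 tested growth factor and receptor genes, 7 rose and 1 fell in the lesion of each genotype. The gene that fell was Kitl, the stem cell factor that binds KIT, named after its values were seen. Its call was kept in both genotypes whichever library was left out. It averaged 51.3 ± 2.89 CPM in DKK1 lesions and 76.9 ± 0.971 CPM in DKK1 intact tissue (-0.58 ± 0.12, adjusted p = 0.00194). In WT mice it averaged 58.6 ± 11.8 CPM in lesions and 84.9 ± 8.18 CPM in intact tissue (-0.53 ± 0.12, adjusted p = 0.00552; SD, n = 3 each). Csf2rb, the common beta chain of interleukin-3 and related receptors, rose by 4.96 ± 0.33 (1.87e-06) in DKK1 mice and 4.01 ± 0.31 (1.81e-05) in WT mice, and its paralog Csf2rb2 rose by 4.81 ± 0.44 (9.92e-06) in DKK1 mice and 4.23 ± 0.43 (6.12e-05) in WT mice. Tgfb1, which acts on mast cell protease genes in culture, rose by 2.97 ± 0.27 (6.99e-06) in DKK1 mice and 2.45 ± 0.26 (6.81e-05) in WT mice. Il9r also rose in both lesions (adjusted p = 2.25e-06 in DKK1 and 6.66e-05 in WT mice), and Il4ra, the interleukin-4 receptor, rose by 2.33 ± 0.22 (9.37e-06) in DKK1 mice and 1.84 ± 0.21 (0.000116) in WT mice.

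All 8 genes of the granule list were tested, and 6 rose in the DKK1 lesion and 5 in the WT lesion, with none falling. Srgn, the proteoglycan core that holds proteases in granules, rose by 2.65 ± 0.19 (adjusted p = 2.07e-06) in DKK1 mice and 1.73 ± 0.18 (5.71e-05) in WT mice. Ctsc, the peptidase that activates granule proteases, rose by 3.30 ± 0.27 (3.82e-06) in DKK1 mice and 2.76 ± 0.26 (3.75e-05) in WT mice. Cd63, a granule membrane protein, rose by 1.35 ± 0.14 (1.61e-05) in DKK1 mice and 1.17 ± 0.14 (0.000113) in WT mice. Ndst2, a heparin-modifying enzyme, rose by 0.65 ± 0.10 (0.000313) in DKK1 mice and 0.48 ± 0.10 (0.00379) in WT mice. Whether these differences between lesion and intact side differ between genotypes is not claimed here.

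The 10 genes whose distribution over the 12 libraries was most like the mean of the 6 mast cell genes were found by overlap, the sum over libraries of the smaller of the 2 shares, where 1 is identity. Among 17121 genes with at least 30 counts the median overlap was 0.395. Mrgprb1 came first at 0.895 and Fcer1a last of the 10 at 0.863, both genes of the mast cell list. The others were Unc93a (0.885), Mcoln3, a lysosomal cation channel gene (0.878), Cd36, a scavenger receptor gene of macrophages (0.876), Spic, a transcription factor gene of macrophages (0.872), and Shisa3 (0.870). Il7r, a cytokine receptor gene (0.869), Sfrp4, which encodes a secreted Wnt-binding protein (0.869), and Mmp12, a macrophage elastase gene (0.865), completed the set. With a minimum of 100 counts, 7 of the 10 were kept. The mast cell genes themselves had overlaps with their mean of 0.925 (Cpa3), 0.894 (Tpsb2), 0.887 (Cma1), 0.878 (Mcpt4), 0.705 (Ms4a2) and 0.598 (Tpsab1), which is in part built in, as each is in the mean. Hdc (0.546) and Kit (0.414), which are not in the mean, lay nearer the median of all genes. These overlaps are a description over 12 libraries that share the same lesion and depth differences.

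**Figure D4:**
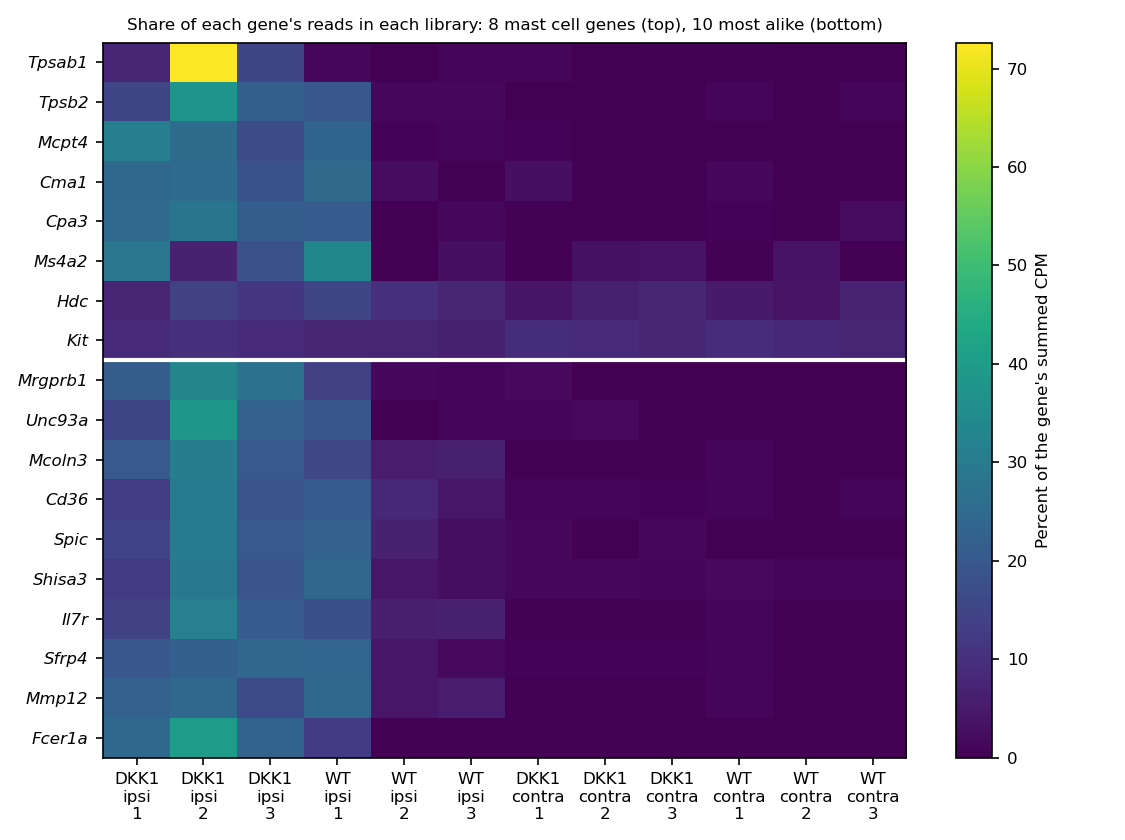
Percent of each gene's summed CPM (colour) in each of the 12 libraries (columns), for the 8 mast cell genes (top rows) and the 10 genes with the most similar distribution (bottom rows). Reads of most rows fall in the 3 DKK1 lesions and WT ipsilateral 1, those of Tpsab1 mainly in DKK1 ipsilateral 2, and those of Kit in all 12 libraries.

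Because Tpsab1 is annotated differently from the other proteases in the C57BL/6J genome, its neighbourhood was compared between genotypes in intact tissue, where mast cell transcripts were nearly absent. Of 101 tested genes within 1 Mb of Tpsab1, Tpsb2 included, 9 were called between DKK1 and WT intact hemispheres (8.91%), beside 0.88% of all genes tested. In lesions 11 of the 101 were called (10.9%), beside 2.37%. Both comparisons concern the same 2 mouse lines. Over chromosome 17 from 20 to 30 Mb, 21 of 228 genes were called in intact tissue (9.21%) and 25 in lesions (11.0%). This stretch contains the window around Tpsab1 and was chosen with earlier results of these data known. The shares of the stretch and of the window are therefore not independent of the data, and neither is a check on the other. Within 1 Mb of Mcpt4, Cma1, Cpa3, Ms4a2, Hdc or Kit, 0 of the 136 tested genes were called in intact tissue by edgeR, DESeq2 or limma-voom, and 4 had an unadjusted edgeR p under 0.05. At the 0.88% of all genes that edgeR called, few calls would be found among 136 genes in any case. Nothing is therefore read from the contrast with the window around Tpsab1.

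Of the called neighbours, 6 are described here. Rnps1, an RNA-binding protein gene (24414646 to 24425897), had 608, 558 and 561 counts in DKK1 lesions and 1644, 1675 and 1703 counts in WT lesions. It had 568, 653 and 625 counts in DKK1 and 1897, 1643 and 1722 counts in WT intact tissue, a log2 fold change of -1.39 ± 0.06 (edgeR adjusted p = 5.38e-08). The ribosomal protein gene Rps2 differed by -1.30 ± 0.07 in intact tissue (edgeR adjusted p = 5.83e-07), Unkl by -0.84 ± 0.07 (3.35e-05), Decr2, a peroxisomal enzyme gene, by -0.63 ± 0.07 (0.000749) and Spsb3 by -0.42 ± 0.05 (0.0017). Rps2 has processed pseudogenes, so its counts are uncertain to the extent that reads were shared with them. Rnf151, a ring finger gene, was higher in DKK1 tissue, with 38, 38 and 49 counts in DKK1 and 6, 2 and 4 counts in WT intact tissue (3.47 ± 0.47, edgeR adjusted p = 0.00245). In lesions the log2 fold changes were -1.51 ± 0.06 for Rnps1, -1.40 ± 0.07 for Rps2, -0.81 ± 0.07 for Unkl, -0.53 ± 0.07 for Decr2, -0.39 ± 0.05 for Spsb3 and 3.97 ± 0.55 for Rnf151. These 6 genes kept their calls in intact tissue under all 21 alternative settings. In lesions Rnf151 and Spsb3 each lost the call under 1 of the 21, and the others kept theirs. The lesion log2 fold change of Rnf151 ranged from 3.1 to 5.46 over these settings. Which alleles the DKK1 line carries at Tpsab1 and around it is not given in the sources used here, and the part of such alleles in the Tpsab1 counts was not tested.

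**Figure D5:**
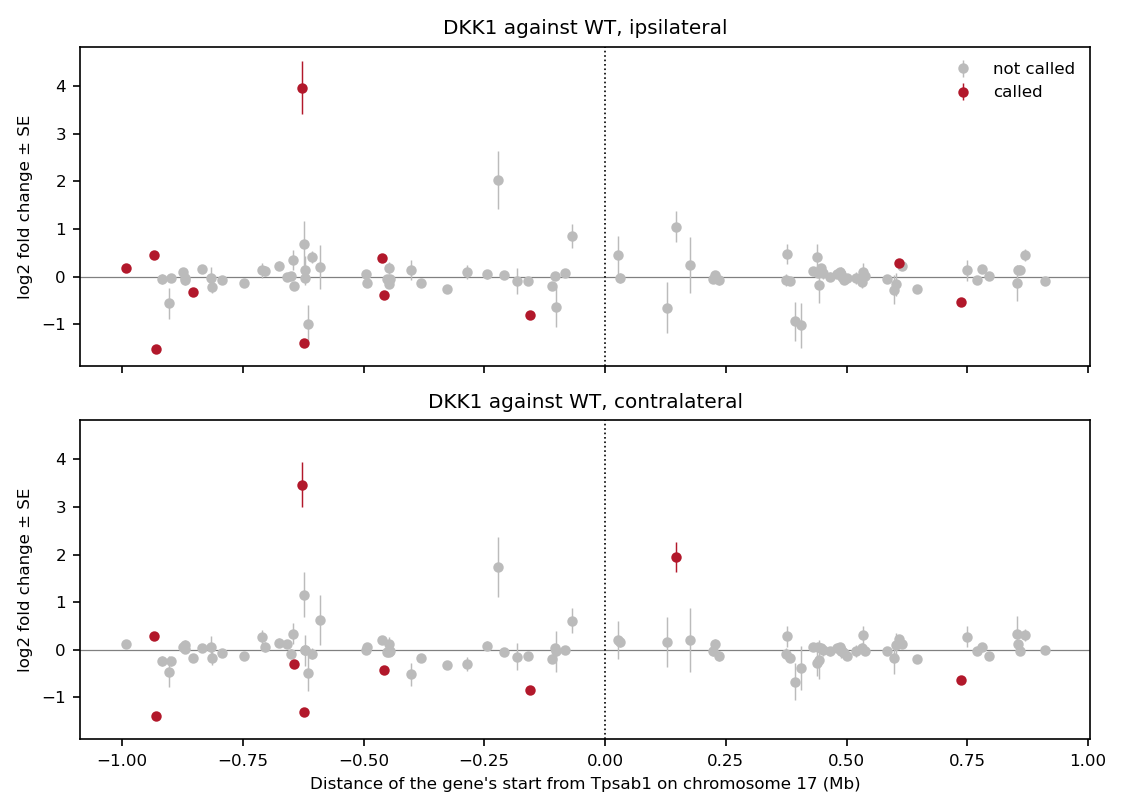
Log2 fold change ± SE of DKK1 against WT for the tested genes within 1 Mb of Tpsab1, by distance of the gene's start (Mb), in ipsilateral (top) and contralateral (bottom) tissue, with called genes in red and without Tpsab1 and Tpsb2. The plot shows 11 called genes in ipsilateral and 9 in contralateral tissue, and Rnf151 is the highest point in both panels.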

How the data were processed

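RNA was sequenced from 12 mouse brain samples in 4 groups, with groups and replicate numbers taken from the labels. The libraries were made with a directional mRNA kit, per the labels' protocols. STAR 2.7.0f, HOMER 4.11, DESeq2 and the build mm10 are named in the submitters' processing notes, and whether counting used strand is not given in the sources used here. Per the file headers, the authors deposited raw counts of 1 RefSeq transcript per gene, with 25124 genes, and a TPM table of the same libraries, whose columns sum to 464000 to 481000. TPM served for levels per length and for 1 alternative (limma 3.58.1 on log2(TPM + 0.1), mean TPM at least 0.1). In a table of 1 transcript per gene, reads outside that transcript are not counted.

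Counts were tested with edgeR 4.0.16 in R 4.3.3: expression filter by group (minimum count 10, 17612 genes left), TMM factors of 0.963 to 1.04, and 1 robust quasi-likelihood model of all 12 libraries. A gene was called at a two-sided p that, after Benjamini-Hochberg adjustment over the whole table, was under 0.05. Where a group had 0 counts, a fold is a bound against 3 counts over the group. For 1 to 3 counts in a group the ratio has an exact 95% interval (Clopper-Pearson). The fit was tested on simulated data. Alternatives were RLE and upper-quartile scaling, no filter, DESeq2 1.42.0, limma-voom, the 6 libraries compared, each library left out, and replicate blocks.

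The genes and lists were chosen with earlier results of these data known. Genes were named by rule: all 8 mast cell genes, up to 4 called genes of each list with the smallest p in each comparison, the 10 most similar profiles, and the 6 called neighbours of Tpsab1 with the smallest p. Predicted gene models were counted, not named. Within a genotype, the 2 hemispheres' libraries with equal numbers deviated together from their group means. Their log2 CPM correlations were 0.276, 0.125 and 0.105 in DKK1, and 0.487, 0.310 and 0.297 in WT mice. Correlations of libraries with unequal numbers are not given here, so pairing by number was assumed. The main fit left this pairing out, and so did every printed adjusted p-value between hemispheres. Only the replicate-block alternatives used it. With genotype by number as a fixed block, genes called between hemispheres numbered 9903 in DKK1 and 7982 in WT mice. The main fit called 8819 and 6546. No 2 libraries of a group agreed within sampling noise (chi-square per degree of freedom at least 4.07).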

Additional observations from a re-analysis of the deposited data

How the results depend on the processing

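Counts of low genes limit these results: in intact tissue and in WT ipsilateral 2 and 3 the 6 mast cell genes had 1 to 16 counts per library. WT ipsilateral 1 decided the size of the difference between DKK1 and WT lesions for Tpsb2, Mcpt4, Cma1 and Cpa3. DKK1 ipsilateral 2 weighed most on Tpsab1, whose log2 fold change was 5.20 with it and 3.74 without it. For Tpsb2 the values were 1.71 and 1.30, and for Mcpt4 1.55 and 1.53. Of 578 alternative fold changes of the 7 tested genes, 548 stayed within the stated spread, 30 moved and 0 reversed a called direction. Genes called between DKK1 and WT lesions numbered 417, and 1145 with DESeq2, 661 with limma-voom, 655 with limma-voom and a random effect for the replicate block, 97 with the 6 lesion libraries alone, and 119 to 2551 with 1 library left out. Between intact hemispheres 155 were called, 267 with DESeq2, and 94 to 197 with 1 library left out. The 2 calls between lesions in the other mast cell lists were 6 with DESeq2, 5 with limma-voom, 5 with limma-voom and a random effect for the replicate block, 3 with edgeR and the replicate block as a fixed term, 1 with the 6 lesion libraries alone and 0 to 25 with 1 library left out. Summed over all 8 genes, the mean log2 CPM differed by 0.51 between DKK1 and WT lesions, by 0.87 in deposited TPM and by 3.36 without Hdc and Kit. Between intact hemispheres it differed by 0.07, and by -0.30 without Hdc and Kit. The number of mast cell genes called in intact tissue was 0 under every setting. The proteases had too few counts there for a call to be likely under any setting. The fit of the 6 intact libraries alone held only Hdc and Kit of these genes. The replicate block changed no other call printed here. The cause of these shifts was not tested.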
